A study of Homo sapiens with 12 samples.

Results

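HSPA1A, HSPA1B and HSPA1L are neighbouring human genes that encode cytosolic heat shock proteins of the HSP70 family. They were examined in a bead array study of HEK293, a human embryonic kidney cell line. Their members were chosen as every probe in the table of bead signals whose annotated symbol is 1 of the 3 names. This gave 3 of the 20043 genes that have a probe with a single symbol, and 3 probes of 47312, with 1 probe for each gene. All 3 lay among the 20909 probes that passed the filter on dim signals. HSPA1L passed that filter through the GR3KR arrays, where it is brighter. The locus was picked because of its changes with 15d-PGJ2 in earlier results of these data. The values for 15d-PGJ2 in each line, and their difference between the lines, therefore describe the probes and are given without a test.

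The isogenic HEK293 lines stably express either a glucocorticoid receptor that cannot be SUMOylated (GR3KR) or the wild-type receptor (wtGR). The 4 groups were GR3KR cells with 100 nM dexamethasone and 5 µM 15d-PGJ2, GR3KR cells with 100 nM dexamethasone alone, wtGR cells with 100 nM dexamethasone and 5 µM 15d-PGJ2, and wtGR cells with 100 nM dexamethasone alone. All were treated for 6 h, in steroid-depleted medium, and each group holds 3 arrays. Dexamethasone, a synthetic agonist of the receptor, was present in every group, so no group shows the cells without it. 15d-PGJ2 is a prostaglandin with an electrophilic ring that reacts with cysteines of proteins. The labels do not say whether a line is 1 clone, and each receptor is represented by 1 line. The arrays read bulk RNA, in which fewer expressing cells and less RNA per cell cannot be told apart. A difference between the lines therefore cannot be told apart from a difference between those cell lines in other respects.

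HSP70 proteins bind unfolded stretches of other proteins, and cycles of ATP binding and hydrolysis, driven by J-domain partners and nucleotide exchange factors, let them release and refold their clients. HSPA1A and HSPA1B are the main stress-inducible members in most human cells, and their products are all but identical. HSPA1L encodes a close relative best known from the testis. Stress releases the transcription factor HSF1 from chaperones, and its trimers bind inverted repeats of a short unit, the heat shock element, upstream of such genes.

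In RefSeq's GRCh38.p14 annotation all 3 genes lie on chromosome 6, in the class III region of the major histocompatibility complex. HSPA1L is at chr6:31809619-31815283 on the minus strand, HSPA1A at chr6:31815543-31817942 on the plus strand and HSPA1B at chr6:31827738-31830254 on the plus strand. HSPA1L and HSPA1A are transcribed away from each other, and 260 bases separate their starts. A stretch of 9796 bases lies between the end of HSPA1A and the start of HSPA1B. No other annotated gene lies within the 20636 bases from HSPA1L to HSPA1B. The probes' own sequences were not used here, so whether a probe reads an untranslated or a coding part, and how far the HSPA1A and HSPA1B probes take up signal from each other's transcript, was not tested.

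The 250 bases before the start of HSPA1A, chr6:31815293-31815542 (+), and of HSPA1B, chr6:31827488-31827737 (+), are shown because the probes of these near-identical neighbours behaved so differently. They are RefSeq sequences of GRCh38.p14, written 5′ to 3′ on the plus strand. Capitals mark 5 motif matches. From left to right they are the GC box, a CCAAT box on the minus strand, an inverted pair of heat shock units (GAANNTTC), a further CCAAT box on the minus strand and the TATA box.
HSPA1A: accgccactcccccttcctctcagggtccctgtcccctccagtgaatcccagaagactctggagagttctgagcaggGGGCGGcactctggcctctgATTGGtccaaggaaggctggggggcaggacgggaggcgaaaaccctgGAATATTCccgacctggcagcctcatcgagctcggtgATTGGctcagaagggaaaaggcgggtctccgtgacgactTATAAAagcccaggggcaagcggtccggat
HSPA1B: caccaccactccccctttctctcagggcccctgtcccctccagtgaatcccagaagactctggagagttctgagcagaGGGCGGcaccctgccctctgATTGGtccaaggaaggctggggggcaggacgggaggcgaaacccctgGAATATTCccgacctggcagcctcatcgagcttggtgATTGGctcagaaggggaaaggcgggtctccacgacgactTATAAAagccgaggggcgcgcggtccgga

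Aligned to each other, the 2 upstream sequences had 235 identical columns of 251 (93.6%), and 2 columns were gaps. All 5 marked motifs were present in both, and none overlapped another. Counted from each gene's own start, the GAANNTTC match began at -106 in HSPA1A and at -105 in HSPA1B, and the TATA box at -30 and -29. HSPA1L starts so close to HSPA1A that 241 of its 250 upstream bases, chr6:31815284-31815533 (-), are the same stretch of genome read on the other strand. The same GAANNTTC match therefore also lies upstream of HSPA1L, beginning at -161. The TATA box lies at -235 from the HSPA1L start and points away from it. Neither TTCNNGAA, the other arrangement of heat shock units, nor AGAACA, a glucocorticoid response element unit, was found in any of the 3 windows on either strand, which says only that these letters are not there. Among 35116 RefSeq promoters searched over the same length on both strands, 5.78% held GAANNTTC and 6.62% held TTCNNGAA. The TATA box, searched as TATAAA, was in 10.7% of them. The CCAAT box, searched by that name's letters, was in 32%, and the GC box, searched as GGGCGG, in 42.6%. The glucocorticoid response element unit was in 12.4%.

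**Figure D1:**
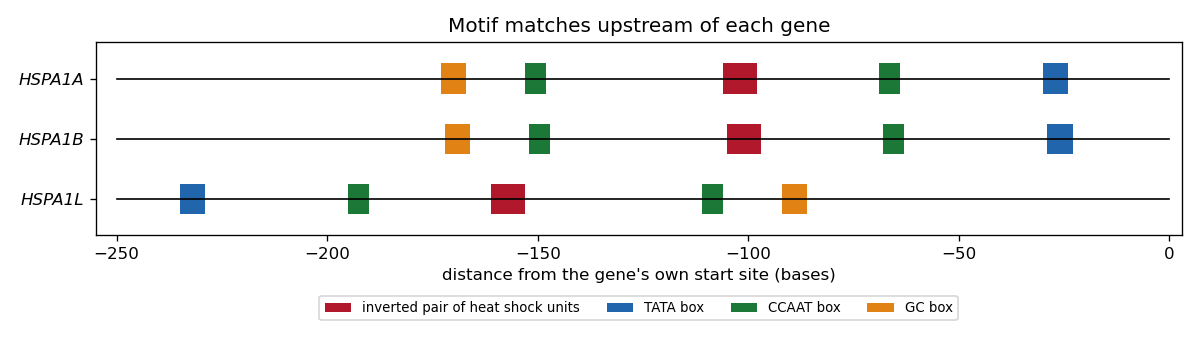
Matches to motifs in the 250 bases before each gene's own start site. The horizontal axis is the distance from that start in bases, each black line is a gene's upstream window and each box is a motif match on either strand. HSPA1A and HSPA1B carry the same motifs at positions that differ by 1 base, and HSPA1L shows the HSPA1A matches in mirror order.

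Array quality moved with 1 of the groups. The 3 GR3KR arrays with 15d-PGJ2 detected 15223, 14207 and 17032 probes at a detection p-value under 0.01, against 17959 to 19950 on the other 9 arrays. These ranges do not overlap. Fits below with the number of detected probes as a covariate therefore cannot fully tell that number apart from 15d-PGJ2 in GR3KR cells. Replicates correlated at 0.927 to 0.974 in that group and at 0.956 to 0.996 in the others, and no 2 replicates held identical values. All 5 HEK293 line markers were detected on at least 3 arrays, with KRT8, VIM and NEFL on all 12. Of the leukocyte markers 1 of 4 (CD79A) and of the fibroblast markers 1 of 5 (COL1A1) was detected on 3 arrays or more, while PTPRC, CD3E, COL1A2 and PDGFRB were detected on 0 arrays. Of the 3 probes for NR3C1, the glucocorticoid receptor gene, 1 was detected on 10 arrays, 1 on 2 and 1 on 0, and they cannot tell the 2 receptor forms apart.

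The HSPA1A probe was brightest in GR3KR cells with 15d-PGJ2. Its raw bead intensities there were 6526, 4153 and 4453 on arrays 1, 2 and 3, against 930.5, 1185 and 1143 in GR3KR cells with dexamethasone alone. In wtGR cells the intensities were 269, 284 and 279 with 15d-PGJ2, against 70.8, 63.2 and 58.6 with dexamethasone alone. The 4 groups did not overlap, and each GR3KR group lay above both wtGR groups. On the last group's arrays the probe was not above background, with detection p-values of 0.448, 0.501 and 0.705, and on the other 9 arrays its detection p-value was 0.

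After background correction and quantile normalization, HSPA1A averaged a log2 intensity of 12.56 ± 0.26 in GR3KR cells with 15d-PGJ2 and 10.05 ± 0.14 in GR3KR cells with dexamethasone alone (SD, n = 3 each). The means were 7.80 ± 0.16 in wtGR cells with 15d-PGJ2 and 4.52 ± 0.04 in wtGR cells with dexamethasone alone (SD, n = 3 each). With 15d-PGJ2 the probe was thus 2.52 log2 units higher in GR3KR cells (standard error, SE, 0.17), which is 5.72-fold. In wtGR cells it was 3.28 log2 units higher (SE 0.17). Because the wtGR control arrays were below background, the fold there was taken against the lowest signal detected on each of those arrays. That gave at least 5.62-fold, a bound that holds for the main processing only. The log2 response in wtGR cells was 2.18 with a larger background offset and 1.37 in the authors' deposited log2 values, which are smaller folds. The response was present on every treated array: single arrays lay 2.67, 2.67 and 2.21 above the control mean in GR3KR cells, and 3.10, 3.36 and 3.39 above it in wtGR cells.

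The HSPA1B probe was brightest in wtGR cells with 15d-PGJ2. Its bead intensities were 731, 352 and 1398 in GR3KR cells with 15d-PGJ2, against 2250.3, 1002 and 1681 in GR3KR cells with dexamethasone alone. In wtGR cells they were 22306, 21334 and 11716 with 15d-PGJ2, against 3251, 1440.5 and 1191 with dexamethasone alone. Only the wtGR group with 15d-PGJ2 stood apart, and the other 3 groups overlapped each other. The probe was detected on all 12 arrays with a detection p-value of 0.

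HSPA1B averaged a log2 intensity of 9.97 ± 0.61 in GR3KR cells with 15d-PGJ2 and 10.63 ± 0.71 in GR3KR cells with dexamethasone alone (SD, n = 3 each). The averages were 14.14 ± 0.46 in wtGR cells with 15d-PGJ2 and 10.31 ± 0.66 in wtGR cells with dexamethasone alone (SD, n = 3 each). Its 15d-PGJ2 response was -0.67 log2 units (SE 0.45) in GR3KR cells, where the treated and control arrays overlapped. In wtGR cells it was 3.83 log2 units (SE 0.45), or 14.2-fold, and single treated arrays lay 4.08, 4.10 and 3.30 above the control mean. The small negative value in GR3KR cells came from arrays 1 and 2, which lay at -0.82 and -1.19 against the control mean and which also detected the fewest probes, while array 3 lay at 0.0079. With arrays 1 and 2 left out the response in GR3KR cells was 0.0079, and with the number of detected probes as a covariate it was 1.16, so its sign was not settled.

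The HSPA1L probe was dim and followed the order seen for HSPA1A. Its bead intensities were 293, 179 and 218 in GR3KR cells with 15d-PGJ2, against 124, 108 and 102 in GR3KR cells with dexamethasone alone. In wtGR cells they were 78.0, 93.4 and 73.7 with 15d-PGJ2, against 62.9, 65.4 and 67.0 with dexamethasone alone. The groups did not overlap. In wtGR cells, however, the probe was above background on only 1 of 3 arrays with 15d-PGJ2 (detection p-values 0.0623, 0.0039 and 0.0416) and on 0 of 3 with dexamethasone alone (0.756, 0.412 and 0.336).

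HSPA1L averaged a log2 intensity of 8.38 ± 0.42 in GR3KR cells with 15d-PGJ2 and 6.06 ± 0.19 in GR3KR cells with dexamethasone alone (SD, n = 3 each). It averaged 5.16 ± 0.29 in wtGR cells with 15d-PGJ2 and 4.54 ± 0.10 in wtGR cells with dexamethasone alone (SD, n = 3 each). Its 15d-PGJ2 response in GR3KR cells was 2.33 log2 units (SE 0.23), or 5.02-fold. Under the other settings it ranged from 1.28, in the authors' deposited log2 values, to 2.58, with array weights. The size of that fold was therefore not settled. In wtGR cells the response was 0.62 (SE 0.23), for which no fold is given because most of the arrays on both sides lay below background. Single treated arrays lay 2.66, 2.46 and 1.86 above the control mean in GR3KR cells and 0.39, 0.95 and 0.52 above it in wtGR cells.

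**Figure D2:**
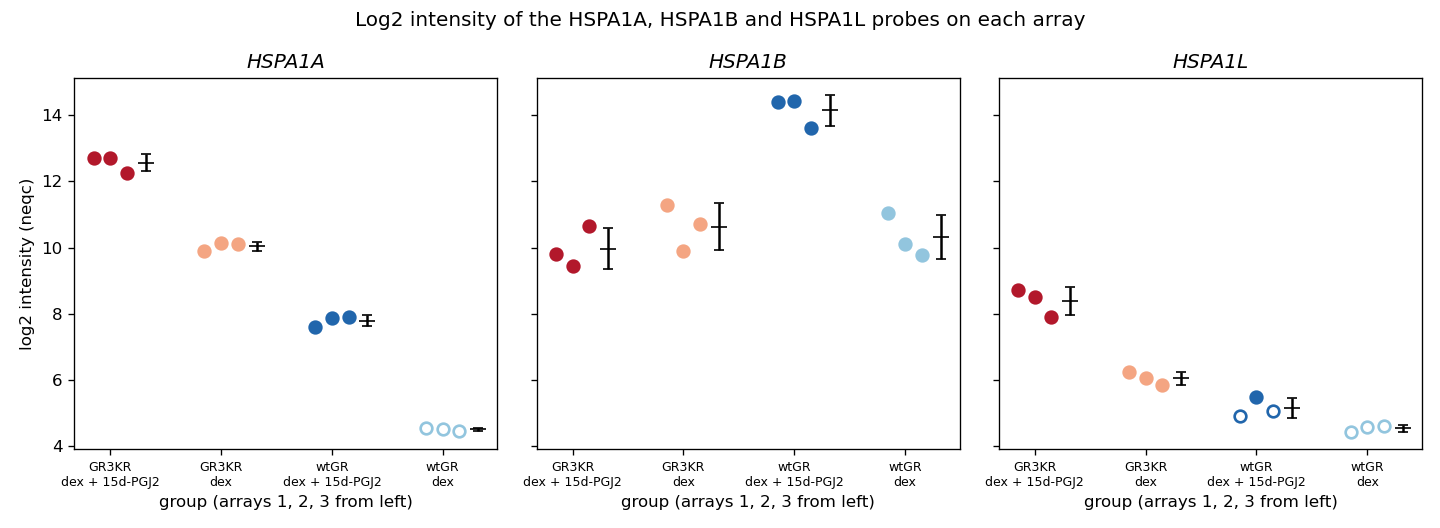
Normalized log2 intensity (vertical axis) of the HSPA1A, HSPA1B and HSPA1L probes on each of the 12 arrays, by group. Points are arrays 1, 2 and 3 from left to right, hollow points were not above background (detection p-value of 0.01 or more), and the bar beside them is the mean ± SD of 3 arrays. HSPA1A and HSPA1L step down from GR3KR with 15d-PGJ2 to wtGR with dexamethasone alone, while HSPA1B is high only in wtGR with 15d-PGJ2.

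Over the 3 genes, arrays with and without 15d-PGJ2 were fully separated for 2 probes in GR3KR cells, where this held for 54.3% of all kept probes. In wtGR cells they were for 3, where it held for 18.5%. HSPA1L is in each count, though it passed the filter only through GR3KR arrays and lay mostly below background in wtGR cells. The probes were chosen on these contrasts, so the counts carry no weight of their own. Set side by side, the responses in GR3KR minus wtGR cells differed by -0.77 for HSPA1A (SE 0.25), -4.49 for HSPA1B (SE 0.64) and 1.71 for HSPA1L (SE 0.33). The HSPA1A value changed sign with the processing, with its wtGR controls below background. It became 0.91 in the authors' deposited log2 values and 0.30 with a larger background offset, so the order of the lines in the HSPA1A response was not settled. The HSPA1B difference stayed between -5.22 and -2.67 and the HSPA1L difference between 1.02 and 1.99 under every setting tried. The HSPA1L value also rests on a floor in wtGR cells. Its probe was above background there on 1 of 3 arrays with 15d-PGJ2 and on 0 of 3 with dexamethasone alone.

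Between the lines with 15d-PGJ2 present, HSPA1A was 4.76 log2 units higher in GR3KR cells (SE 0.17), or 27.2-fold. HSPA1B differed by -4.17 log2 units (SE 0.45) and was 18.04-fold lower in GR3KR cells. That difference shrank to -2.03 once the count of detected probes entered the fit as a covariate. It was -3.50 when array 3 alone stood for treated GR3KR cells, so the size of the HSPA1B fold was not settled. HSPA1L was 3.22 log2 units higher in GR3KR cells (SE 0.23), at least 8.15-fold in the main processing, with 1 of 3 wtGR arrays above background. In the authors' deposited log2 values HSPA1A was at 3.96, HSPA1B at -4.15 and HSPA1L at 1.56. With the larger offset HSPA1L was at 2.40, so its fold fell below that bound under each of these settings. Each of the 3 kept its direction under every setting tried. Neither HSPA1A nor HSPA1B overlapped between the lines in this contrast, as was the case for 55% of all kept probes. HSPA1L is left out of that count, because it passed the filter on dim signals only through GR3KR arrays.

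**Figure D3:**
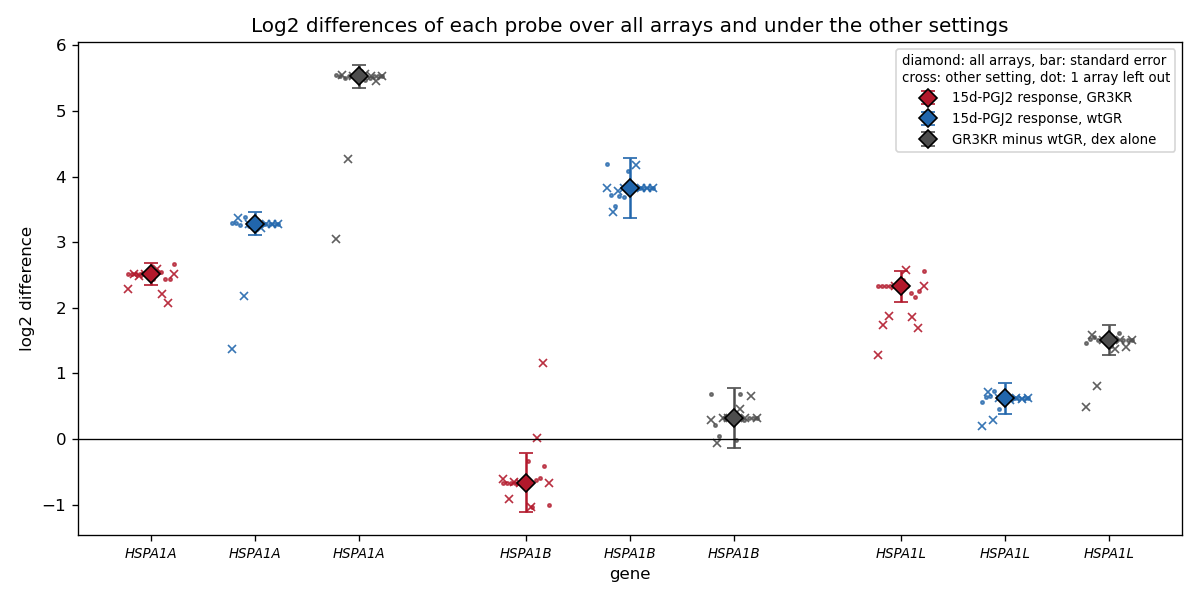
Log2 differences (vertical axis) of the 3 probes for the 15d-PGJ2 response in GR3KR cells, the 15d-PGJ2 response in wtGR cells and GR3KR minus wtGR under dexamethasone alone. Diamonds are the values over all 12 arrays with their standard error, crosses are other processing settings and dots leave out 1 array. The HSPA1B responses in the lines stay apart, at -1.04 to 1.16 in GR3KR and 3.46 to 4.19 in wtGR cells, whereas the HSPA1A response in wtGR cells ranges from 1.37 to 3.38.

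Neighbouring genes were then compared by their responses within a line, since the brightness of different probes is not comparable. In GR3KR cells the HSPA1A response exceeded the HSPA1B response by 3.18 log2 units (SE 0.60). In wtGR cells the difference was -0.54 (SE 0.60), within its error. It reached -2.46 in the authors' deposited log2 values and -1.61 with the larger offset. The HSPA1A controls in that line lay below background. The difference in GR3KR cells was 2.20 without treated arrays 1 and 2 and 0.91 with the number of detected probes as a covariate. For the divergently transcribed pair, the HSPA1L response minus the HSPA1A response was -0.19 (SE 0.18) in GR3KR cells and -2.67 (SE 0.18) in wtGR cells, where the controls of both probes lay below background. With the larger offset these values were -0.61 in GR3KR and -1.89 in wtGR cells, and with median scaling -0.78 and -2.65. In the authors' deposited log2 values they were -0.997 and -1.17. HSPA1L minus HSPA1B was 2.99 (SE 0.61) in GR3KR cells and -3.21 (SE 0.61) in wtGR cells. The difference in GR3KR cells was 1.85 without arrays 1 and 2, and 0.53 with the covariate.

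The comparison that was not used to choose the locus was GR3KR minus wtGR under dexamethasone alone, which asks how the lines differed before any 15d-PGJ2 was added. HSPA1A was called higher in GR3KR cells and HSPA1B was not called, where 1.54% of the 20909 kept probes were called higher and 3.08% lower. HSPA1L is left out of this count, because it passed the filter on dim signals only through GR3KR arrays. Calls are those of limma's moderated test with an adjusted p (Benjamini-Hochberg, all kept probes) below 0.05. HSPA1A was 5.53 log2 units higher in GR3KR cells (SE 0.17), at least 26.7-fold in the main processing, with a limma adjusted p of 1.354e-07. It was above background on 3 of 3 GR3KR arrays and on 0 of 3 wtGR arrays, so the log2 value rests on a floor on the wtGR side. It was 4.26 with the larger offset and 3.05 in the authors' deposited log2 values, which are smaller folds than that bound. Over the 21 other settings the limma adjusted p ranged from 6.3e-11 to 0.0001074. HSPA1L differed by 1.51 log2 units (SE 0.23), at least 1.68-fold higher in GR3KR cells in the main processing. HSPA1L was also detected on 3 of 3 GR3KR arrays and 0 of 3 wtGR arrays. Its value was 0.81 with the larger offset and 0.48 in the authors' deposited log2 values, the latter a smaller fold than that bound. Its limma adjusted p was 0.005792 over all 47312 probes in the fit with no filter, again with the wtGR arrays below background. The dexamethasone-alone arrays compared here were also the controls of the 15d-PGJ2 responses for which the locus was picked.

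HSPA1B did not pass the test, at 0.32 log2 units (SE 0.45, 95% interval -0.68 to 1.32) and a limma adjusted p of 0.8138. Its arrays overlapped, and the interval still holds changes of more than 1 log2 unit upwards. The value changed sign to -0.06 with median scaling in place of quantile normalization and to -0.01 without GR3KR dexamethasone array 1, and its limma adjusted p ranged from 0.1679 to 0.9972 over the other settings. The arrays of the lines did not overlap for HSPA1A, as held for 31.4% of all kept probes. HSPA1B varied most between replicates. Its residual SD was 0.62 log2 units, larger than in 82.9% of kept probes, while HSPA1A had 0.17 (larger than in 9.48%) and HSPA1L 0.28 (larger than in 33.8%). The median residual SD was 0.34.

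Among other genes around the locus, 1 probe was called between the lines. The 10 neighbours from CLIC1 to EHMT2 had 19 probes, of which 14 from 9 genes were kept. Under dexamethasone alone it was 1 of the 14, higher in GR3KR cells, and 0 were lower, beside 1.54% and 3.08% of all kept probes. The median log2 difference of the 14 was 0.22, against 0.0044 over all kept probes. The called probe was 1 of 3 kept for MSH5, a meiotic relative of mismatch repair proteins, at 1.93-fold and a limma adjusted p of 0.03664. The others were at 1.31 and 1.08 log2 units, without passing the test in the main fit. When the number of detected probes was a covariate, 2 of the 14 were called higher, both of MSH5. That fit called 631 of the 20909 kept probes higher. LSM2, an RNA-binding subunit of a splicing and decay complex and the nearest kept gene on the HSPA1L side, was at 0.22 log2 units (limma adjusted p = 0.5261). SNHG32, a host gene for small nucleolar RNAs and the nearest on the HSPA1B side, was at 0.30 and -0.31 log2 units on its probes (limma adjusted p = 0.754 and 0.3157).

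The same neighbours were set beside the 15d-PGJ2 responses. In GR3KR cells 0 of the 14 probes were called higher and 2 lower, where 27.2% of all kept probes were called higher and 17.6% lower. They were 1 probe each of MSH5 (-2.77 log2 units, limma adjusted p = 0.007181) and SNHG32 (-1.58 log2 units, limma adjusted p = 0.009232), and each was detected on 1 of the 3 treated arrays. Other probes of these genes were not called: MSH5 had them at 0.57 and -1.61 and SNHG32 at 0.29 log2 units. In wtGR cells 0 of the 14 were called, where 0.0574% of all kept probes were called higher and 0.0191% lower. The neighbours' median response was -0.01 in GR3KR cells and 0.04 in wtGR cells, beside 0.18 and -0.03 over all kept probes.

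**Figure D4:**
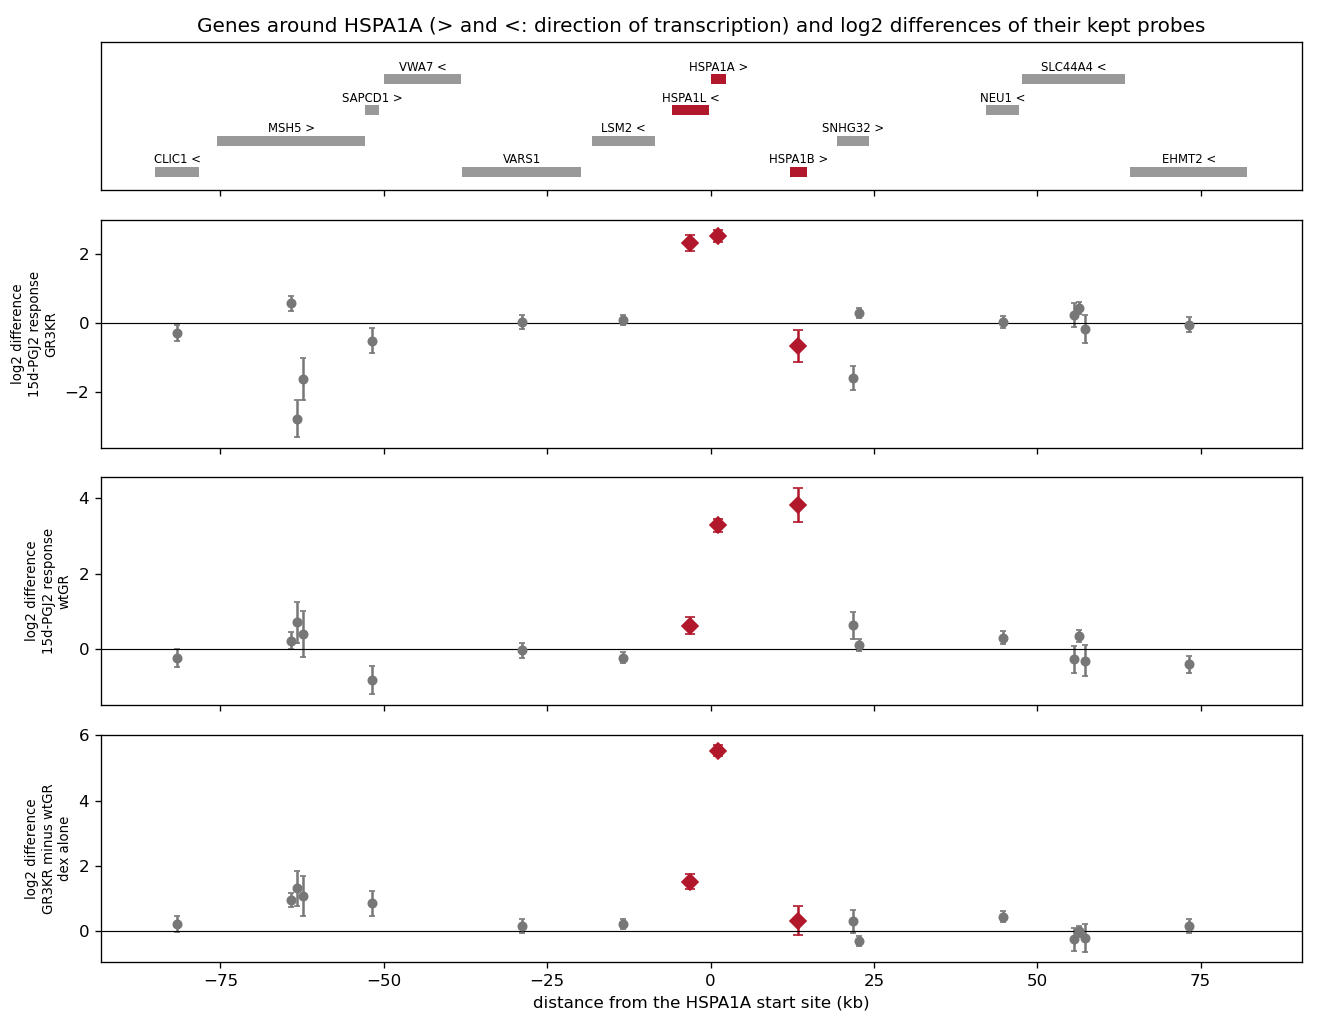
Genes around HSPA1A by distance from its start site in kb (top) and, below, log2 differences of their kept probes at each gene's midpoint, with standard errors; the probes of 1 gene are drawn slightly apart. Diamonds are HSPA1L, HSPA1A and HSPA1B and grey points are the other genes; no direction of transcription is drawn for VARS1. The diamonds at HSPA1L and HSPA1A lie above the grey points in GR3KR cells (2.33 and 2.52) and under dexamethasone alone (1.51 and 5.53), and those at HSPA1A and HSPA1B in wtGR cells (3.28 and 3.83).

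Other HSP70 family genes gave 19 kept probes from 13 genes. This list and those that follow were chosen with earlier results of these data known, so their counts and p-values only describe them. With 15d-PGJ2 in GR3KR cells 7 of the 19 were called higher and 3 lower, beside 27.2% and 17.6% of all kept probes, with a median of 0.07 log2 units. HSPA6, a strictly stress-inducible HSP70, had the largest change there, at 10.9-fold (limma adjusted p = 0.0002479). HSPA2, a family member best known from the testis, had a probe at -3.16 log2 units (limma adjusted p = 0.01636), detected on 1 of 3 treated arrays, while its other probe was at -0.56 (limma adjusted p = 0.2222). The 2 probes of HYOU1, an endoplasmic reticulum relative, were at -2.85 and -2.72, each also detected on 1 of 3 treated arrays. In wtGR cells 3 were called higher and 0 lower, beside 0.0574% and 0.0191% of all kept probes, with a median of 0.57. They were HSPA6 at 53.3-fold (limma adjusted p = 2.154e-06), its near-identical relative HSPA7 at 22.3-fold (limma adjusted p = 1.35e-05), with which it can share signal, and HSPH1, an HSP110 exchange factor, at 3.62-fold (limma adjusted p = 0.02502). A further HSPA6 probe, detected on 3 of the 12 arrays, was not called, at -0.19 log2 units in GR3KR and 4.62 in wtGR cells. Under dexamethasone alone 2 of the 19 probes were called lower in GR3KR cells and 0 higher, beside 3.08% and 1.54% of all kept probes. They were HSPA6 at 2.61-fold lower (limma adjusted p = 0.008616) and HSPA5, the endoplasmic reticulum chaperone BiP, at 2.49-fold lower (limma adjusted p = 0.006992). The called HSPA6 probe thus ran opposite to HSPA1A between the lines.

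The partners of HSP70 were mixed. The J-domain partners, which stimulate HSP70's ATP hydrolysis, gave 11 kept probes from 8 genes. Of these, 2 were called higher and 2 lower with 15d-PGJ2 in GR3KR cells (27.2% and 17.6% over all kept probes). In wtGR cells 0 were called, beside 0.0574% higher and 0.0191% lower over all kept probes. DNAJB1, the main stress-inducible J-domain partner, was 3.84 log2 units higher in wtGR cells but missed the test (SE 0.76, limma adjusted p = 0.141). DNAJB6 gave opposite values on its probes in GR3KR cells, at -4.03 and 0.72 log2 units. Under dexamethasone alone its second probe was the 1 called in the list, at 1.81-fold lower, where 3.08% of all kept probes were called lower. Of 12 kept probes from 8 exchange factors and co-chaperones, 3 were called higher and 3 lower in GR3KR cells, beside 27.2% and 17.6% of all kept probes, and 1 higher in wtGR cells (0.0574% over all kept probes). In GR3KR cells BAG2 was 2.88-fold higher, the 2 probes of the ubiquitin ligase STUB1 were at -4.94 and -3.84 log2 units, and the HSP70-HSP90 adaptor STIP1 was 2.26-fold lower. The call in wtGR cells was BAG3, an exchange factor that feeds selective autophagy, at 3.07-fold (limma adjusted p = 0.03921). No co-chaperone probe was called under dexamethasone alone, where 1.54% of all kept probes were called higher and 3.08% lower. The 2 with the smallest p there were BAG5 and BAG4 (limma adjusted p = 0.08921 and 0.2228).

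Among 22 kept probes from 15 other genes that HSF1 is known to drive, 7 were called higher and 5 lower in GR3KR cells, beside 27.2% and 17.6% of all kept probes. In wtGR cells 2 were called higher and 0 lower (0.0574% and 0.0191% over all kept probes). In GR3KR cells ZFAND2A, a proteasome-associated zinc finger protein, was 3.76-fold higher (limma adjusted p = 0.001351), whereas a probe each of CACYBP, UBB and HSP90AA1 was at -4.30, -3.48 and -2.67 log2 units. Other probes were at -1.12 for CACYBP (limma adjusted p = 0.01134), 0.09 for UBB, and -0.05 and -0.02 for HSP90AA1, so the lower values of UBB and HSP90AA1 stood on 1 probe each. The CACYBP probe at -4.30 was detected on 1 of 3 treated arrays and the probe at -1.12 on 0 of 3. The calls in wtGR cells were ZFAND2A at 2.91-fold (limma adjusted p = 0.02678) and DEDD2, a death effector domain protein, at 3.15-fold (limma adjusted p = 0.02252). Under dexamethasone alone the small heat shock protein HSPB1 was 2.46-fold higher in GR3KR cells (limma adjusted p = 0.001286), while its relatives HSPB8 and CRYAB were at least 2.16-fold and at least 2.901-fold lower (limma adjusted p = 0.002616 and 0.02107). Heat shock factors and their binding protein gave 3 kept probes. In GR3KR cells HSBP1, which binds HSF1, was 1.77-fold higher (limma adjusted p = 0.02189). There 2 dim probes of HSF4 were called lower, at -1.28 and -0.98 log2 units, and were detected on 0 of the treated arrays. Over all kept probes 27.2% were called higher and 17.6% lower in that contrast. In wtGR cells 0 of the 3 were called, beside 0.0574% higher and 0.0191% lower. Between the lines 0 were called, beside 1.54% higher and 3.08% lower.

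Over all 6 lists, 81 kept probes from 55 genes held 20 called higher and 17 lower with 15d-PGJ2 in GR3KR cells, beside 27.2% and 17.6% of all kept probes. Because the lists were chosen with earlier results of these data known, counts over them carry no weight of their own. Without GR3KR 15d-PGJ2 arrays 1 and 2, 1 probe was called higher (HSPA6) and 0 lower, in a fit that leaves 1 treated array, which is assumed to vary like the other groups. With the number of detected probes as a covariate 0 of the 81 and 0 of the 20909 kept probes were called by limma. At an unadjusted limma p under 0.05 there were 650 kept probes, a share below 0.05. In wtGR cells the 81 probes held 6 called higher and 0 lower, beside 0.0574% and 0.0191% of all kept probes. Under that covariate these counts became 9 and 0, when DNAJB1, CRYAB and HSPB1 were called too. The covariate fit called 25 higher and 11 lower in wtGR cells over all 20909 kept probes.

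The probes most like each member over the 12 arrays were found by the root mean square difference of log2 values after each probe's own mean was removed, over 16338 other kept probes with 1 symbol. For HSPA1A these were GHR (1.51), ISL1 (1.61), HSPA1L (1.69), GSTP1 (1.81) and STAT6 (1.84), which set against its own SD of 2.96 over the 12 arrays are loose matches. GHR and ISL1 shared with it the gap between the lines under dexamethasone alone, at 3.79 and 3.28 log2 units, but their 15d-PGJ2 responses were 0.43 and 0.54 in GR3KR cells and -0.08 and -0.22 in wtGR cells. For HSPA1B they were THSD1 (0.89), HSPH1 (0.92), CHORDC1 (0.98), DNAJB1 (1.002) and CTH (1.01), beside its own SD of 1.75. For HSPA1L, with its own SD of 1.47, they were H2BC4 (0.48), TFPI (0.53), CYP2E1 (0.53), SFT2D3 (0.56) and GLDN (0.56). Between the members the difference was 1.69 for HSPA1L and HSPA1A, 2.72 for HSPA1L and HSPA1B, and 3.76 for HSPA1A and HSPA1B.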

How the data were processed

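RNA from 12 samples was hybridised to Illumina BeadChips, 3 for each of 4 groups set by the labels. The labels say triplicate without stating separate cultures, so a p-value reflects the spread among these samples alone. The authors deposited a table of 47312 probes with linear bead intensity, not normalized, and a detection p-value for each intensity. Another deposited table holds log2 values, for which the submitters' processing notes name lumi. Its version and steps are not given in the sources used here.

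With neqc of limma 3.58.1 (R 4.3.3, offset 16), intensities were corrected for background using the detection p-values, quantile normalized and log2 transformed. A probe was kept if its detection p-value was below 0.01 on 3 arrays or more. Group means were fitted with lmFit and eBayes of limma over all 12 arrays (8 residual and 2.66 prior degrees of freedom). Tests were 2-sided, with Benjamini-Hochberg adjustment over 20909 kept probes and a threshold of 0.05. The procedure was tested on simulated data. A fold against arrays below background used the lowest detected signal of each array, and the number of arrays limits precision. Such a bound holds for the offset of 16 and quantile normalization only. Differences between neighbouring probes' responses came from least squares on 4 groups. The platform annotation supplied 1 symbol for 30107 probes, while 8 had several and 17197 had none. Promoters and coordinates came from RefSeq tables of GRCh38.p14 and were aligned with Biopython 1.88 in Python 3.11.15.

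The member genes, the lists (HSP70 family, J-domain partners, exchange factors and co-chaperones, heat shock factors, other HSF1-driven genes, neighbours of the locus, and HEK293, leukocyte and fibroblast markers) and the array quality settings were chosen with earlier results of these data known. Named were all members and the 5 probes most like each. Per list and comparison the rule named at most 4 called probes, by size of change, or where none was called at most 2, by p. Other probes of a gene so named, the nearest kept gene on each side of the locus, and list members called under a single setting were added after their values were seen. Alternatives were the deposited log2 values, median scaling, an offset of 50, no filter, a replicate block, array weights, the array quality settings, fits of only the 6 arrays compared, and leaving out each array.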

Additional observations from a re-analysis of the deposited data

Results flagged for a closer look

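In 9 of the 31 probes named for a 15d-PGJ2 response, every GR3KR array with 15d-PGJ2 lay on one side of its control mean and every wtGR array on the other. The difference between the lines was not tested for any of them, and none is HSPA1A, HSPA1B or HSPA1L. The values are the 15d-PGJ2 response in GR3KR minus that in wtGR cells, in log2 units. They were -3.87 for an HSPA2 probe (-3.16 in GR3KR, 0.71 in wtGR; the other probe -0.56 and 0.013), -6.31 for a DNAJB6 probe (-4.03 and 2.28), -5.14 for a STUB1 probe (-4.94 and 0.20) and -2.31 for STIP1 (-1.17 and 1.13). Among HSF1-driven genes they were -7.28 for a CACYBP probe (-4.30 in GR3KR, 2.99 in wtGR), -4.12 for a UBB probe (-3.48 and 0.64) and -3.31 for an HSP90AA1 probe (-2.67 and 0.64). The other UBB probe was at 0.09 in GR3KR and 0.05 in wtGR cells, and the other HSP90AA1 probes at -0.02 and -0.05 in GR3KR and 0.13 and 0.86 in wtGR cells. Next to the locus they were -3.48 for an MSH5 probe (-2.77 in GR3KR, 0.71 in wtGR) and -2.20 for an SNHG32 probe (-1.58 and 0.62). In GR3KR cells with 15d-PGJ2 the DNAJB6 probe was above background on 0 of 3 arrays, and those of HSPA2, STUB1, CACYBP, MSH5 and SNHG32 on 1 of 3, while STIP1, UBB and HSP90AA1 were detected on 3 of 3. Whether the lower number of probes detected on these arrays had a part in these values was not tested.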

How the results depend on the processing

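The number of arrays, the signal of HSPA1A and HSPA1L near background in wtGR cells and the lower number of probes detected on GR3KR 15d-PGJ2 arrays limit these values. For HSPA1A and HSPA1B, 40 of 42 tested values under other settings kept their direction and their side of the threshold. The exceptions were HSPA1B between the lines under dexamethasone alone, at -0.059 with median scaling and -0.012 without GR3KR dexamethasone array 1. Leaving out single arrays gave -0.012 to 0.691 there. Of 372 untested values 322 stayed within 1 SD, 46 moved further and 4 changed sign. The last were the HSPA1A difference of responses (0.91 in the deposited log2 values, 0.30 with the larger offset) and the HSPA1B response in GR3KR cells (0.0079 with treated arrays 1 and 2 removed, 1.16 with the number of detected probes as a covariate). The cause was not tested.

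The counts of called probes over the whole table moved more. They were 9371 for 15d-PGJ2 in GR3KR cells, 16 for 15d-PGJ2 in wtGR cells and 967 between the lines. In the same order they were 14057, 6192 and 7363 with array weights, 10, 81 and 2487 once treated GR3KR arrays 1 and 2 were removed, and 0, 36 and 2013 with the number of detected probes as a covariate. In limma's unadjusted test, 650 probes stood at p under 0.05 beside that count of 0, which is a share below 0.05 of the kept probes. With median scaling the first was 5279, of which 877 higher (5697 higher in the main count), and the last 2085, of which 152 higher (322). In wtGR cells it called 24, with 7 higher, beside 12 of 16. With only the 6 arrays compared the first was 5240 and the second 6. The count in wtGR cells was also 28 in the deposited log2 values and 34 with no filter. Leaving out single arrays gave 4116 to 12840, 5 to 74 and 311 to 2001, and removing the third GR3KR 15d-PGJ2 array gave the highest of each.

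Same-numbered arrays correlated in their deviations at -0.17 to 0.75, so the replicate numbers were not taken to pair the arrays, and 5 of 9 arrays correlated best with their own number. With the replicate block the count in wtGR cells was 9, against 9063 in GR3KR cells and 653 between the lines, and the call for HSPA1A did not change. A block for the BeadChip was not run, since the column headers used here name no chip.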
